A study of Homo sapiens with 2 samples.

Results

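The genes described are 10 genes of immune signalling, chosen by name and measured in GM12878: the chemokines CCL3, CCL4, CCL5 and CCL22, the chemokine receptors CCR7 and CXCR4, the cytokine subunit EBI3, and the tumour necrosis factor family ligands LTA, LTB and TNF. They are 10 of the 16645 annotated genes with at least 1 read. GM12878 is an established human B-lymphoblastoid line, made by infecting B cells with Epstein-Barr virus. The 2 libraries, replicate 1 and replicate 2, form 1 group, for which the labels name no treatment, so no condition can be compared with another. Native RNA was passed through nanopores without amplification (kit SQK-RNA002), starting from depleted RNA, after a reverse transcription step that opened secondary structure. The labels do not say whether the libraries came from separate cultures, so every p-value below measures only how far the reads of these libraries differ.

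Chemokines are small secreted proteins that guide leukocytes along gradients through receptors with several membrane-spanning segments. B cells infected by Epstein-Barr virus are known to switch on an NF-kB driven programme in which CCL22, CCL3, CCL4, CCL5, LTA, TNF and EBI3 are typical products, and both EBI3 and CCR7 were first described as genes induced by the virus. CCR7 leads lymphocytes to lymph nodes and CXCR4 responds to CXCL12 of bone marrow and germinal centres. LTA and LTB form the membrane-bound lymphotoxin heterotrimer, and LTA alone and TNF act as soluble ligands of the TNF receptors.

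Replicate 1 held 1360368 reads and replicate 2 held 1510998, so 3 reads, the limit that a count of 0 allows, were worth 2.21 and 1.99 CPM (reads of a gene scaled to the library total). The labelled cell type was checked on markers. The B cell markers CD22, CD79A, CD79B, MS4A1 and PAX5 had reads in both libraries, with 688 and 679 CPM for CD79A and 265 and 275 CPM for MS4A1. Of 6 T cell markers, CD3E (5 and 16 reads) and CD2 (3 and 10 reads) had reads, and CD3D, CD3G, CD4 and CD8A had none, for summed levels of 5.88 and 17.2 CPM. Of 6 NK cell markers, NKG7 (35 and 37 reads) and KLRD1 (0 and 1 read) had reads, and GNLY, NCAM1, KLRB1 and NCR1 had none. Of 6 myeloid markers, CD14 (2 and 2 reads) and CSF1R (2 and 6 reads) had reads, and LYZ, S100A8, S100A9 and FCGR3A had none.

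The sequences that bear on the read assignments are shown first, from GENCODE release 29 transcripts, on GRCh38. A single-exon model as long as the last exon took most reads of CCL22. The coding sequence of CCL22-201 (chr16:57358817-57363585, plus strand, exons 1 to 3) is therefore given with the part in the last exon in capitals. Of its 279 coding bases, 82 lie there, which is 29.4%, while the last exon as a whole has 2687 bases. The start of the CCR7-201 coding sequence (chr17:40555789-40565409, minus strand) is given down to the first 30 bases of the last exon, in capitals; here 1074 of 1134 coding bases, 94.7%, lie in that exon.
CCL22 coding sequence: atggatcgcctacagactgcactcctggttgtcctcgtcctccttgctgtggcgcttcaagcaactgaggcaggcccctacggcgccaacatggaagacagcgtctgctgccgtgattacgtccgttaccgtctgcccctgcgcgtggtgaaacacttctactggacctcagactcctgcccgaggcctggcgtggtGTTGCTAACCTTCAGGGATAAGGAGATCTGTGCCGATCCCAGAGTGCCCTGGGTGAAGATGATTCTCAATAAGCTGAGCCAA
CCR7 coding start: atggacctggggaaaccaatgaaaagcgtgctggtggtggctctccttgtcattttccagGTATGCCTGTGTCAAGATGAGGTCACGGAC

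The most-read annotated models of LTB, and those of CXCR4, differ within the coding sequence. LTB-210 holds an exon 2 of 46 bases (chr6:31581814-31581859, minus strand), shown in capitals with 15 coding bases of each neighbouring exon, and LTB-211 joins exon 1 to the next exon without it. CXCR4-201 begins its coding sequence in a separate exon 1, and CXCR4-202 begins it in sequence that lies directly upstream of exon 2 (chr2:136115883-136115939, minus strand); capitals mark the bases that only one of them carries, and the lower-case bases are common to both.
LTB-210: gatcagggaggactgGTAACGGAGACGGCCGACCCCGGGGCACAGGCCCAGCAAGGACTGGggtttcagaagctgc
LTB-211: gatcagggaggactgggtttcagaagctgc
CXCR4-201: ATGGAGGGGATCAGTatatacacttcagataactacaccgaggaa
CXCR4-202: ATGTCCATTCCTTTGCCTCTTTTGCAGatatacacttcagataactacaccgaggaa

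CCL3 and CCL4 have near-identical gene copies, CCL3L1 and CCL4L2, on the same chromosome. The coding sequences of CCL3-204 and CCL3L1-203 differ at 9 of 276 aligned bases (96.7% identity) and by 3 unaligned bases. Those of CCL4-202 and CCL4L2-217 differ at 7 of 276 bases (97.5% identity). The 60 coding bases with the most differences are shown for each pair, with the differing bases in capitals (CCL3 at chr17:36088693-36088752, minus strand; CCL4 at chr17:36104629-36105270, plus strand, across an intron).
CCL3: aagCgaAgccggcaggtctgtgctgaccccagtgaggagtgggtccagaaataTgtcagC
CCL3L1: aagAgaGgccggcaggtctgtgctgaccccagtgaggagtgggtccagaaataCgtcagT
CCL4: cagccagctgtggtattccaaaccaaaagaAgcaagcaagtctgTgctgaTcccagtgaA
CCL4L2: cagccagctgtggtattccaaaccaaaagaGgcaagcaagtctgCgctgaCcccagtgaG

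All 10 genes were read in both libraries, and together they took 2501 CPM in replicate 1 and 2946 CPM in replicate 2 (mean 2723 ± 315, SD, n = 2). CCL22 supplied 53.1% and 52.9% of these reads. One read stands for 1 RNA strand in this assay, so CPM needs no division by length in principle; because a read may cover only part of a strand, the level per kilobase of assigned model is given beside it. CCL22, EBI3 and CCR7 were the 3 highest genes on the CPM scale and on the scale of CPM per kilobase. CCL4 was the lowest on both, but per kilobase it lay close to TNF (25.8 against 26.3).

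CCL22, a chemokine that attracts cells with CCR4, had 1805 reads (1327 CPM) in replicate 1 and 2355 reads (1559 CPM) in replicate 2. Its mean level of 1443 CPM ± 164 (SD, n = 2), or 533 CPM per kilobase, placed it 118th of the 16645 genes. EBI3, which pairs with other chains to form cytokines of the IL12 family, had 547 and 616 reads, a mean of 405 CPM ± 3.95 (SD, n = 2) or 336 CPM per kilobase, at rank 299. CCR7 had 368 and 508 reads, a mean of 303 CPM ± 46.4 (SD, n = 2) or 142 CPM per kilobase, at rank 420. Each of these 3 genes lay below the one before it by more CPM than the summed SDs of the pair.

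The next 6 genes formed a run of means from 115 to 58.3 CPM in which no gene differed from its neighbour by more than their summed SDs. CCL5, also called RANTES, had 128 and 205 reads (115 CPM ± 29.4, SD, n = 2, at rank 1210). LTA had 164 and 137 reads (106 CPM ± 21.1, SD, n = 2). CCL3, also called MIP-1 alpha, had 88 and 210 reads (102 CPM ± 52.5, SD, n = 2). Unlike LTA, it had the larger value in replicate 2. CXCR4 had 75 and 189 reads (90.1 CPM ± 49.5, SD, n = 2). LTB had 125 and 92 reads (76.4 CPM ± 21.9, SD, n = 2). TNF had 84 and 83 reads (58.3 CPM ± 4.82, SD, n = 2, at rank 2465). CCL4, also called MIP-1 beta, stood apart below this run in CPM, with 18 and 56 reads (25.1 CPM ± 16.9, SD, n = 2, at rank 4886). Per kilobase of model, LTB moved from the eighth to the fifth place, LTA from the fifth to the seventh and CXCR4 from the seventh to the eighth, and the other 7 genes kept their places.

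**Figure D1:**
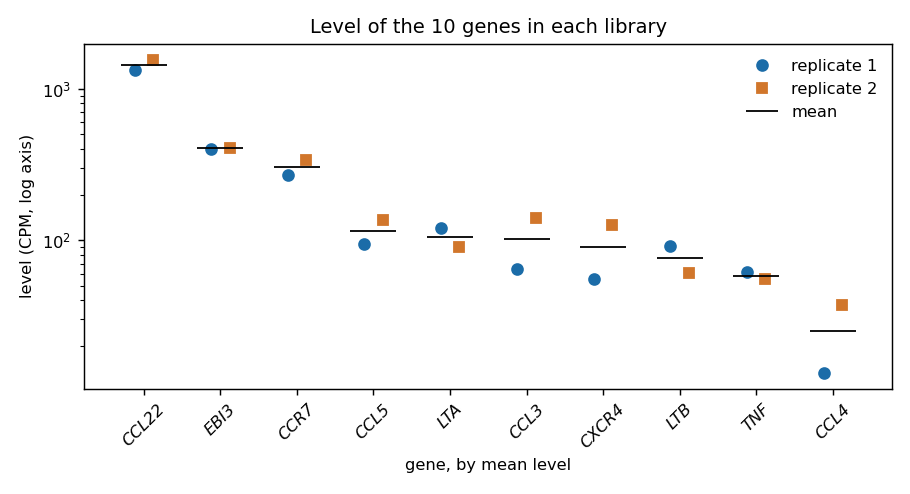
Level of each gene in CPM on a log axis, with a circle for replicate 1, a square for replicate 2 and a line for their mean. CCL22 lies at 1327 and 1559 CPM, and the libraries are farthest apart in CCL4, CXCR4 and CCL3.

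The libraries were then compared gene by gene. Of the 10 genes, and with all models counted, the 4 chemokines and both receptors were higher in replicate 2. EBI3 and the 3 tumour necrosis factor family ligands did not pass the test. The calls of CCL5, CCR7 and CCL22 as higher did not hold with known models only. Each gene was given an exact binomial test, in both directions, with the split expected from the totals of the libraries. At a Benjamini-Hochberg adjusted p under 0.05 over 10634 genes, 6 of the 10 genes were called, all higher in replicate 2; of all genes tested, 5.05% were called, 2.72% as higher and 2.33% as lower. In bulk RNA, a change in the share of cells with a transcript and a change in the RNA per cell cannot be told apart. The median log2 ratio of replicate 2 to replicate 1 was 0.27 over the 10 genes and 0.01 over all genes tested.

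CCL4, CXCR4 and CCL3 differed most. CCL4 rose from 13.2 to 37.1 CPM, 2.80-fold (exact 95% interval 1.62 to 5.06, counting error only), with an adjusted p of 0.00249 in the exact test. CXCR4 rose from 55.1 to 125 CPM, 2.27-fold (1.73 to 3.01), with an adjusted p of 6.02e-08 in the exact test. CCL3 rose from 64.7 to 139 CPM, 2.15-fold (1.67 to 2.79), with an adjusted p of 5.16e-08 in the exact test. These 3 genes were the only ones of the 10 with a log2 ratio above 1, which 5.66% of all genes tested had. CCL3 and CCL4 were higher in replicate 2 and past the threshold with each of the 6 alternative scalings, model sets and read minimums tried; CCL4 had no genomic reads, so leaving out genomic models took none of its reads. CXCR4 was too, but it had no ISM or genomic reads, so the other model sets took few or none of its reads, and its spliced model CXCR4-201 alone was 1.33-fold higher with an interval that spans 1 (0.781 to 2.31). CCL3 and CCL4 are neighbours 13.4 kb apart on chromosome 17.

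The other 3 called genes differed less. CCL5 rose from 94.1 to 136 CPM, 1.44-fold (1.15 to 1.81), CCR7 from 271 to 336 CPM, 1.24-fold (1.08 to 1.43), and CCL22 from 1327 to 1559 CPM, 1.17-fold (1.10 to 1.25). None of these 3 calls as higher held with known models only: there the log2 ratio was -1.97 in CCL22 (3.89e-41 as adjusted exact p) and -0.92 in CCR7 (3.16e-06 as adjusted exact p), both called as lower, and -0.0602 in CCL5, which was not called. Relative to the median of all genes with known models only (-0.55), the ratio was -1.42 in CCL22, -0.37 in CCR7 and 0.49 in CCL5. With genomic models left out, CCL5 lost its call. With library sizes from edgeR's trimmed mean of M values (TMM), CCR7 missed the threshold of the exact test (0.0569) and LTB passed it as lower (0.0369), so the calls were 5 higher and 1 lower, against 5.21% of all genes called. With DESeq2 size factors the calls were the 6 named above (5.01% of all genes). Without a minimum read number, CCR7 again missed the threshold, at 0.0522 in the exact test, which left 5 calls (2.78% of all genes). At a minimum of 50 reads LTB was called too, as lower, which made 7 calls (9.62% of all genes). LTB stood at 91.9 and 60.9 CPM, 0.663-fold (0.501 to 0.874), with an adjusted p of 0.0525 in the exact test. LTA stood at 121 and 90.7 CPM, 0.752-fold (0.595 to 0.949), and TNF at 61.7 and 54.9 CPM, 0.890-fold (0.649 to 1.22). EBI3 stood at 402 and 408 CPM, 1.01-fold (0.902 to 1.14). The summed T cell markers were 5.88 and 17.2 CPM in the same libraries; neither CD3E nor CD2 passed the test (adjusted p of 0.304 and 0.442 by exact testing), and their part in the chemokine differences was not tested.

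**Figure D2:**
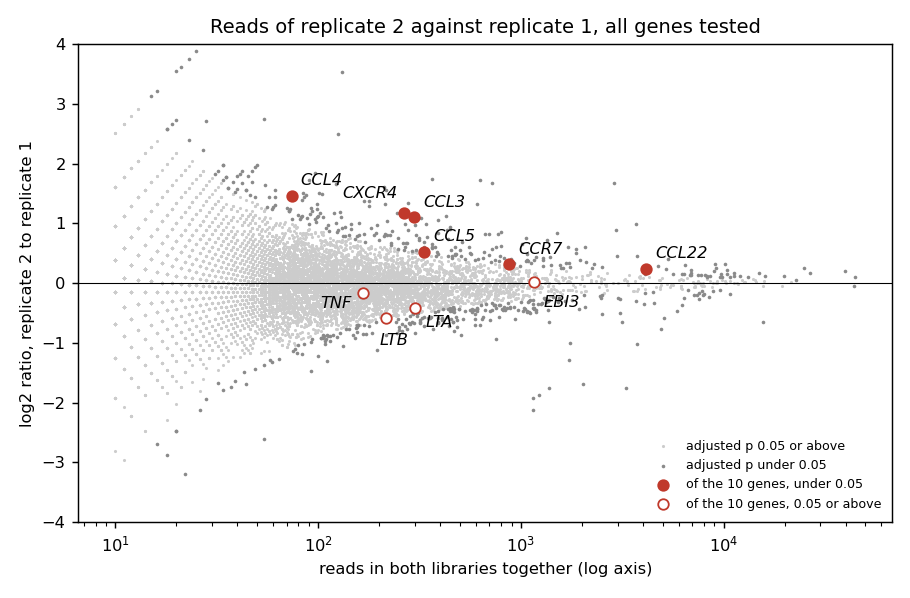
Log2 ratio of replicate 2 to replicate 1 against the reads of both libraries together on a log axis, one point per gene tested, with 6 genes beyond the axis not shown. Filled red points are the 6 called genes of the 10, all above 0, and open red points are EBI3, TNF, LTA and LTB.

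Reads were next divided by the category of their model, as the table gives it. A known model matches an annotated transcript, and an incomplete splice match (ISM) has only a run of its junctions or exons. NIC models combine annotated splice sites anew, NNC models have an unannotated splice site, and genomic models overlap the gene without matching its splicing. Over the 10 genes, known models held 39.7% of reads in replicate 1 (95% Wilson interval 38.1 to 41.3%) and 24.3% in replicate 2 (23.0 to 25.6%), a mean of 32.0% ± 10.9 (SD, n = 2). ISM models held 52.2% and 66.0%. CCL22 set much of this: without it, an alternative added after seeing the data, known models held 60.8% and 46.5%, a mean of 53.6% ± 10.1 (SD, n = 2). Over the whole table they held 55.9% and 45.9%.

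The genes fell far apart in their known share. CXCR4 (93.3% and 98.4%), CCL4 (94.4% and 91.1%), LTB (84.0% and 75.0%) and CCL3 (78.4% and 76.2%) had the highest shares in both libraries. EBI3 (56.9% and 39.1%), CCL5 (59.4% and 39.5%), LTA (59.8% and 41.6%) and TNF (57.1% and 30.1%) lay between. CCR7 had 48.1% and 20.5%, and CCL22 had 21.0% and 4.54%.

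The known share was lower in replicate 2 in all of the genes but CXCR4, and 13.2% of all genes tested had a higher one, so this count is near that of all genes. At an adjusted p under 0.05 (Fisher's exact test, Benjamini-Hochberg over 8898 genes with at least 20 reads), 6 of the 10 were called, all lower; of all genes tested, 18.3% were called, 18.1% as lower and 0.202% as higher. The same 6 genes were called with a minimum of 10 reads (14.6% of all genes) and with 20 reads in each library (27.1%), where CCL4 had too few reads. The median difference was -17.1 percentage points over the 10 genes and -7.13 over all genes tested. The called genes were CCR7 (-27.6 points, adjusted p of 6.90e-16, Fisher's exact test), TNF (-27.0), CCL5 (-19.9), LTA (-18.2), EBI3 (-17.7) and CCL22 (-16.5). When genomic models were left out of the share, CCL5 (-12.2 points, adjusted p of 0.110) and TNF (-5.56 points, adjusted p of 0.850) no longer passed Fisher's exact test, and 4 of the 10 were called against 16.7% of all genes.

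**Figure D3:**
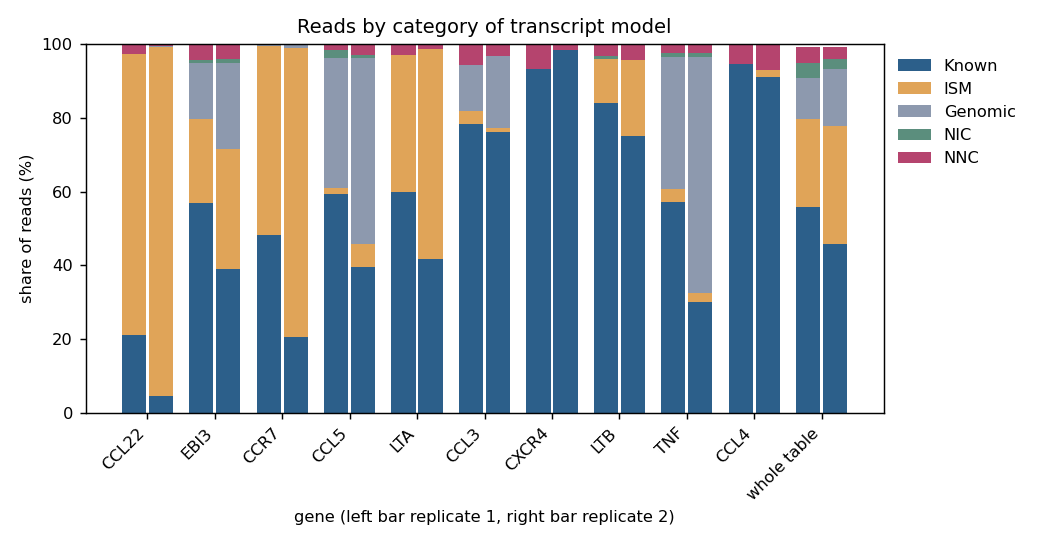
Share of reads by category of transcript model, in percent, with the left bar of each pair for replicate 1 and the right bar for replicate 2. CCL22 and CCR7 consist mostly of ISM reads in replicate 2, TNF and CCL5 have large genomic parts, and CXCR4 and CCL4 are nearly all known; antisense and intergenic models fill the gap above the whole-table bars.

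CCL22, CCR7, LTA and LTB each had 1 single-exon ISM model, and its length equalled the annotated last exon of the gene to the base. In CCL22 this model, ENCODEHT000359487, has 2687 bases, as does the last exon, and it received 1344 of 1805 reads in replicate 1 (74.5%, Wilson interval 72.4 to 76.4%) and 2210 of 2355 in replicate 2 (93.8%, 92.8 to 94.7%). The fully spliced CCL22-201, with 3 exons and 2929 bases, had 379 reads (279 CPM) and 107 reads (70.8 CPM), 0.254-fold (0.203 to 0.316). The gene total and the spliced model thus moved in opposite directions between the libraries. The length is that of the model, and the table gives no read lengths or positions.

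CCR7 showed the same split. Its single-exon ISM model as long as the last exon, ENCODEHT000410500 with 2050 bases, had 175 and 395 reads, 47.6% and 77.8% of the gene. The spliced CCR7-201 of 2173 bases had 176 reads (129 CPM) and 104 reads (68.8 CPM), 0.532-fold (0.413 to 0.682). In LTA the single-exon ISM model of 1044 bases had 33 reads (20.1%) and 55 reads (40.1%). LTA-213 had 92 reads (67.6 CPM) and 47 reads (31.1 CPM). In LTB the single-exon ISM model of 609 bases had 12 reads (9.60%) and 13 reads (14.1%), with overlapping intervals (5.58 to 16.0% and 8.45 to 22.7%). Models of 2 exons held 4.10% and 0.598% of the known and ISM reads of CCR7 and 1.94% and 0.728% of those of CCL22.

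EBI3-201 has 5 exons, and the last is 50.3% of its length. The ISM reads of EBI3 were spread over several steps. Models with 5 exons held 74.3% and 57.5% of the known and ISM reads, those with 4 exons 9.40% and 10.7%, with 3 exons 7.80% and 18.4%, and with 2 exons 8.03% and 13.2%. ISM models of the suffix type, which keep the 3′ end, held 117 of 125 ISM reads of EBI3 in replicate 1 and 188 of 199 in replicate 2. The spliced EBI3-201 of 1186 bases had 311 reads (229 CPM) and 241 reads (159 CPM), 0.698-fold (0.587 to 0.828). Reads in 3-exon model ENCODEHT000324904 went the other way, from 31 to 76. With known models only, the log2 ratio of EBI3 was -0.52, or 0.03 relative to the median of all genes.

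**Figure D4:**
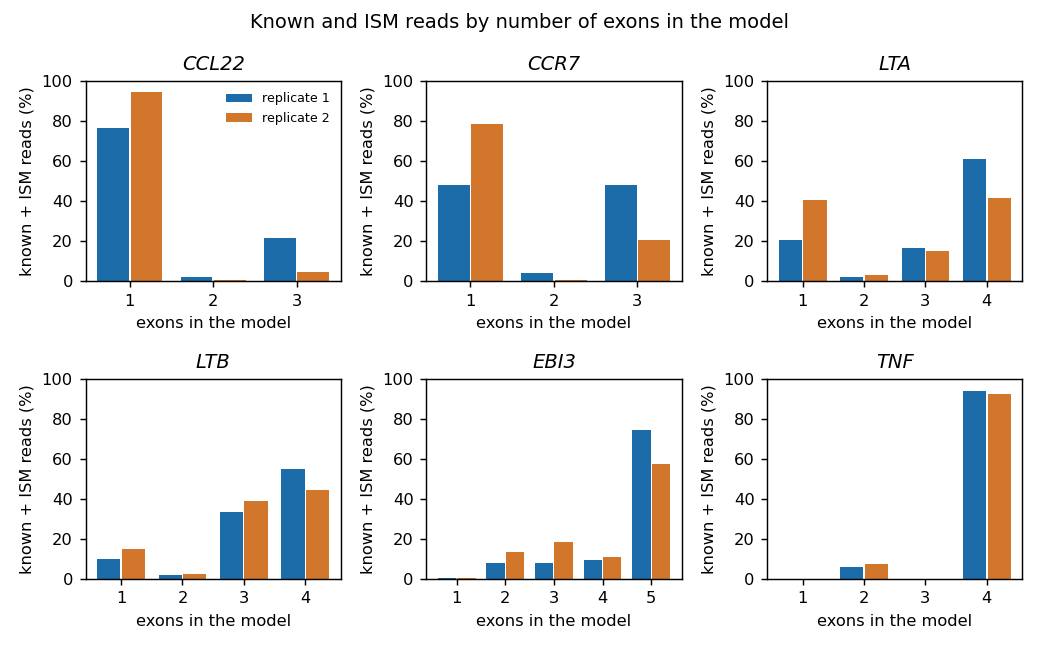
Known and ISM reads of 6 genes by the number of exons in the model, in percent of these reads, with blue bars for replicate 1 and orange bars for replicate 2. CCL22 and CCR7 split between models of 1 and 3 exons, EBI3 has reads at each step from 2 to 5 exons, and TNF has almost all of these reads in its 4-exon model.

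In TNF, CCL5, EBI3 and CCL3, most single-exon reads were in genomic models. In TNF, the single-exon model ENCODEHT000569790 has 2770 bases, the full span of the gene (chromosome 6, 31575567 to 31578336, plus strand), and had 30 reads (35.7%, Wilson interval 26.3 to 46.4%) in replicate 1 and 53 reads (63.9%, 53.1 to 73.4%) in replicate 2. The spliced TNF-208 had 48 reads (35.3 CPM) and 25 reads (16.5 CPM), 0.469-fold (0.277 to 0.776). TNF-208 was the most-read model of the gene in replicate 1, and the genomic model was in replicate 2. With genomic models left out, TNF passed the library test as lower with a log2 ratio of -0.99 (adjusted p of 0.0276 in the exact test). With that model set LTB was called as lower too and CCL5 was not called, which gave 5 higher and 2 lower calls, against 9.44% of all genes. LTB had no genomic reads, so its log2 ratio stayed at -0.59. Only the adjustment, over 8758 genes, changed its adjusted p (0.0339 in the exact test). The table does not tell whether the genomic reads crossed introns or lay within one exon.

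In CCL5, the genomic model ENCODEHT000357523 of 512 bases had 45 reads (33.1 CPM) and 101 reads (66.8 CPM), 2.02-fold (1.41 to 2.94). The spliced CCL5-201 had 73 reads (53.7 CPM) and 79 reads (52.3 CPM), 0.974-fold (0.700 to 1.36). Without the genomic models CCL5 missed the library test with a log2 ratio of 0.14 (adjusted p of 0.813 in the exact test). In EBI3 the main genomic model had 83 and 143 reads. In CCL3 the genomic model of 2743 bases, longer than the gene (1914 bases), had 11 and 41 reads. CCL3 and CCL5 each overlap an annotated antisense gene on the opposite strand. Whether any of the genomic reads came from those genes was not tested.

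The spliced models of CCL3 and CCL4 were higher in replicate 2, like the gene totals. CCL3-204, with 3 exons and 778 bases, had 65 reads (47.8 CPM) and 147 reads (97.3 CPM), 2.04-fold (1.51 to 2.77). CCL4-202, with 3 exons and 904 bases, had 15 reads (11.0 CPM) and 47 reads (31.1 CPM), 2.82-fold (1.55 to 5.43). These 2 models held 73.9% and 70.0% of the reads of CCL3 and 83.3% and 83.9% of those of CCL4. CCL3-206, in which an intron is retained, had 4 and 13 reads. With known models only, 9 of the 10 genes were called, against 30.4% of all genes. CCL3, CCL4 and CXCR4 were called as higher, and CCL22, CCR7, EBI3, LTA, LTB and TNF as lower. Of the 1681 calls over all genes, 156 were higher and 1525 lower, with a median log2 ratio of -0.55 over all genes tested. Relative to that median, CCL22 stood at -1.42, CCR7 at -0.37 and TNF at -0.53. LTA stood at -0.38, LTB at -0.21 and EBI3 at 0.03 on the same scale.

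The copies took few reads. CCL3L1 had 1 and 20 reads, a difference that passed the library test (adjusted p of 0.00152, exact), and CCL4L2 had 5 and 5 reads. The copy held 1.12% (Wilson interval 0.199 to 6.09%) and 8.70% (5.70 to 13.0%) of the summed CCL3 and CCL3L1 reads. Summed with their copies, CCL3 went from 65.4 to 152 CPM (2.33-fold) and CCL4 from 16.9 to 40.4 CPM (2.39-fold). Since the pairs differ at so few coding bases and nanopore reads contain errors, how the authors' counting divided reads between the copies is uncertain. CCL3L3 and CCL4L1, the other copies listed, are not in the primary assembly of GENCODE release 29.

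CXCR4 had no ISM and no genomic reads, and its annotation holds a single-exon model. CXCR4-202 of 1895 bases covers all 1562 bases of exon 2 of CXCR4-201 and 331 bases upstream, so a read of exon 2 alone lies within it. CXCR4-202 had 45 reads (33.1 CPM) and 149 reads (98.6 CPM), 2.98-fold (2.12 to 4.26). The spliced CXCR4-201 had 25 reads (18.4 CPM) and 37 reads (24.5 CPM), 1.33-fold, with an interval that spans 1 (0.781 to 2.31). The CXCR4-202 share of the reads of both models was 64.3% (52.6 to 74.5%) in replicate 1 and 80.1% (73.8 to 85.2%) in replicate 2. Reads that span the whole of CXCR4-202 and reads that stop within exon 2 cannot be told apart in the table.

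Over all 10 genes, reads in single-exon models of any category had a median share of 27.6% in replicate 1 and 44.95% in replicate 2. Over the 7404 genes with a spliced known model and at least 20 reads, the medians were 23.0% and 37.5%. The share was higher in replicate 2 in 9 of the 10 genes and in 82.2% of all these genes. CCR7 had the largest difference of the 10, 30.8 percentage points, and CCL4 the only negative one, at -3.97 points with 2 and 4 such reads. CCL22, with a mean of 84.2% ± 13.7 (SD, n = 2), ranked 516th of the 7404 genes.

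LTB was read in both of its splice forms. LTB-211, without exon 2, held 37 of 103 reads of the 2 models in replicate 1 (35.9%, Wilson interval 27.3 to 45.5%) and 29 of 68 in replicate 2 (42.6%, 31.6 to 54.5%), and the mean was 39.3% ± 4.76 (SD, n = 2). The intervals overlap. The annotation gives 732 coding bases for LTB-210 and 231 for LTB-211. In LTA, LTA-214, whose first exon has 249 bases against 164 in LTA-213, had 5 of 97 and 9 of 56 reads beside LTA-213. CCL5-203, with 4 exons, had 3 of 76 and 2 of 81 reads beside CCL5-201.

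Unannotated splicing was rare and mostly seen once. The 10 genes had 80 NIC and NNC models with 105 reads in replicate 1 and 80 in replicate 2, and 16 of the models were read in both libraries. EBI3 held 27 of them. One had at least 5 reads in each library: ENCODEHT000358592 of CCL22, an NNC model of 3 exons and 2927 bases, 2 bases shorter than CCL22-201, with 26 and 7 reads. Of all 163 models of the 10 genes, 89 (54.6%) rested on a single read.

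The other genes of the same pathways were taken from lists. In the library test 5.05% of all genes tested were called, so the few calls in these short lists do not set the lists apart. Of 39 other chemokine ligands in the annotation, 14 had a read and 8 had the 10 reads needed for the library test; CCL3L1 was called higher and none lower. CCL17, which shares the receptor CCR4 with CCL22, had 162 and 175 reads (117 CPM ± 2.31, SD, n = 2). CXCL10 had 20 and 7 reads and CCL20 had 9 and 18. The ligands of the 2 receptors were at or near 0: CXCL12, the ligand of CXCR4, and CCL21 had no read, and CCL19 had 3 and 0 reads.

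Of 20 other chemokine receptors, 15 had a read and 5 were tested, and none was called. CCR10 (90.4 CPM ± 4.24, SD, n = 2) and CXCR3 (50.7 CPM ± 5.24, SD, n = 2) were the highest, followed by CCR9 (12.5 CPM ± 0.0550, SD, n = 2). Receptors of the chemokines described here had few reads, with 5 and 4 for CCR1, 0 and 1 for CCR3, and 4 and 7 for CCR4.

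Of 14 other ligands of the tumour necrosis factor family, 9 were tested and 1 was called, against 5.05% of all genes tested. It was CD70, the ligand of CD27, with 318 and 412 CPM (1.29-fold, adjusted p of 0.00187 in the exact test). Of the others, TNFSF9 had 80.9 CPM ± 14.7 (SD, n = 2) and TNFSF14 had 19.3 CPM ± 3.89. Among the receptors, TNFRSF1B had 91 and 81 reads, TNFRSF1A had 11 and 16, TNFRSF14, a receptor of LTA, had 100 and 125, and LTBR, the receptor of the LTA and LTB heterotrimer, had none. None of the 3 tested receptors was called.

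EBI3 was read far more than its known partners. IL12A, its partner in interleukin 35, had 1 and 1 read, and IL27, its partner in interleukin 27, had 0 and 1 read, against 547 and 616 reads of EBI3. IL23A had 5 and 5 reads and IL12B none. Of the receptor chains, IL27RA had 41 and 72 reads (38.9 CPM ± 12.4, SD, n = 2) and IL12RB1 had 31 and 27 reads, and neither was called.

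**Figure D5:**
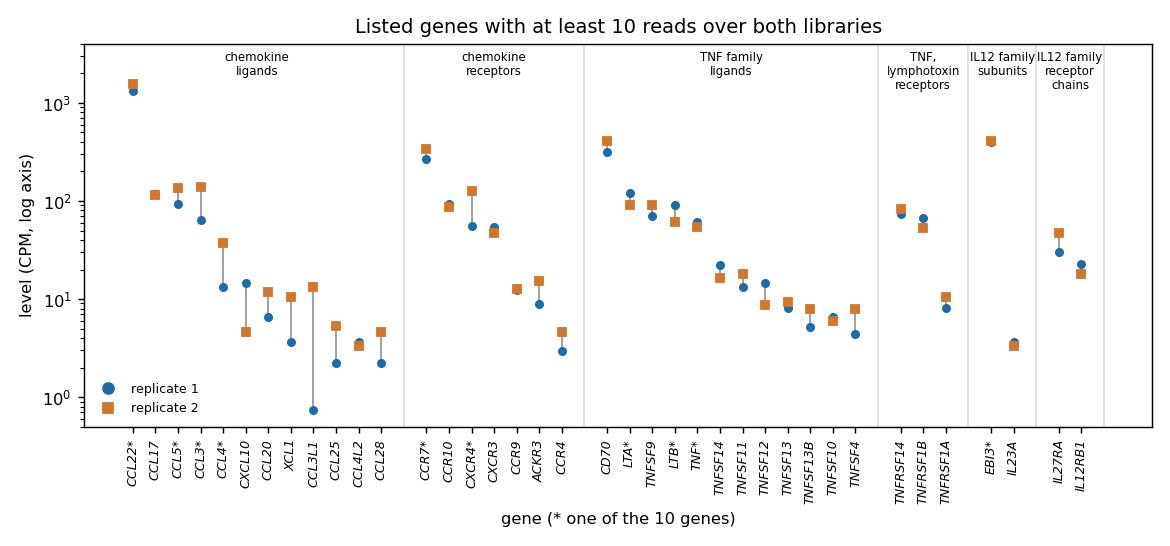
Level in CPM on a log axis of every listed pathway gene with at least 10 reads over both libraries, with circles for replicate 1, squares for replicate 2 and asterisks on the 10 genes. CCL22 is the highest ligand, CCR7 the highest chemokine receptor, and CCL3L1 has the widest gap between the libraries.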

How the data were processed

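The data are 2 direct RNA libraries of 1 cell line. Read counts per transcript model, neither scaled nor normalized, were deposited by the authors in 1 table, with 1 column per replicate. Its other properties, the exon number and length of each model, were deposited by the authors too. The submitters' processing notes name minimap2 and hg38; the name of the table shows TALON; versions, annotation release and read filters are not given in the sources used here. All 23533 known models matched GENCODE release 29 in identifier and length, so gene positions and transcript sequences come from that release.

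Counts were summed over all models of a gene and divided by the total reads of the table. Each gene with at least 10 reads was tested between libraries with a two-sided exact binomial test, and each with at least 20 reads for its known share with Fisher's exact test (scipy 1.17.1), with Benjamini-Hochberg adjustment at 0.05. Log2 ratios had 0.5 reads added. Intervals are at 95% and cover counting error only. Alternatives used edgeR 4.0.16 and DESeq2 1.42.0 scaling, other read minimums and other model sets. In the library test, the other model sets were still scaled to the totals of all reads. Both tests were tested on simulated data with counting error only, so their behaviour under a wider spread was not tested. The libraries were not copies of each other, since their counts gave a chi-square of 3.27 for each gene on average. That value is above what counting error alone would give. The exact binomial p-values and the intervals do not cover this excess, so they overstate how certain the differences are.

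The 10 genes and all lists were chosen with earlier results of these data known. Named by rule were the 10 genes, their most-read models, NIC or NNC models with at least 5 reads in each library, the gene copies, the receptors and partners of the 10 genes, the 3 highest genes of each list, and listed genes past the threshold. IL12B, and marker genes outside this rule, were named after their values were seen. Some listed genes are not reported here.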

Additional observations from a re-analysis of the deposited data

How the results depend on the processing

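No paired analysis was possible because the libraries form 1 group. With either replicate left out, the summed level and known share are those of the remaining library: 2501 to 2946 CPM and 24.3 to 39.7%. Neither test can be run on 1 library. Of the 10 genes, 5 to 9 were called in the library test under the alternatives, against 2.78% to 30.4% of all genes, and 4 to 6 in the test of the known share, against 14.6% to 27.1%. CCL3 and CCL4 kept their call and direction under all 6 alternatives of the library test, of which leaving out genomic models took no read from CCL4. CXCR4 did too, but it had no ISM or genomic reads to leave out.

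The model set mattered most. With known models only, the summed level was 854 CPM, and the log2 ratios of all genes had a median of -0.55 in place of 0.01. In that set 1681 genes were called (156 higher and 1525 lower) in place of 537. There the log2 ratio reversed in CCL22 (-1.97, or -1.42 relative to that median), CCR7 (-0.92, or -0.37), EBI3 (-0.52, or 0.03) and CCL5 (-0.0602, or 0.49), and 9 of the 10 genes were called, 6 of them lower. With genomic models left out, the median was -0.15, 827 genes were called (220 higher and 607 lower, against 289 and 248), and EBI3 reversed to -0.13. With TMM scaling EBI3 reversed to -0.00379. The known-share difference of CCL3 reversed to 5.06 points without genomic models. Without CCL22 the known share of the genes was 53.6%. The cause of these changes was not tested, beyond the reads that each model set leaves out. Per kilobase of model, 7 of the 10 genes kept their rank. Depth limits CCL4 most, with 18 reads in replicate 1.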
